A study of Mus musculus with 12 samples.

Results

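Fatty acid oxidation and acyl-CoA genes were followed in mouse kidney tubuloids, which are epithelial structures grown in Matrigel from dissected and dissociated renal cortex. The set was defined by gene symbol and holds 39 genes: regulators, lipases, acyl-CoA synthetases, carnitine acyltransferases, the enzymes of the mitochondrial and peroxisomal oxidation cycles, their electron carriers, and enzymes of coenzyme A turnover. All 39 were found among the 20819 genes of the expression table, all are protein coding, and all 39 passed the filter on low values. The 3 treatments of 12 h compared, all on wildtype cells, were myoglobin with 100 nM dexamethasone (called both agents here), myoglobin alone, and vehicle. Myoglobin is the haem protein of muscle, used by the study to injure tubular cells, and dexamethasone is a synthetic glucocorticoid. Each treatment had 4 libraries, 12 in all. No group with dexamethasone alone was analysed here, so the dexamethasone contrast applies to myoglobin-treated cells. The cortices came from 4 mice; the labels do not say that a replicate number is a mouse, and p-values measure only the spread between these samples. Age and sex of the mice are not given in the labels.

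Proximal tubule cells draw much of their ATP from fatty acids. A fatty acid is joined to coenzyme A, carried into the mitochondrion as a carnitine ester by the CPT enzymes, and then shortened in repeated rounds of dehydrogenation, hydration, dehydrogenation and thiolysis, with electrons passed through ETF to the respiratory chain. Peroxisomes run a related cycle on very long and branched chains, and pass shortened products on as carnitine esters, octanoyl carnitine among them. PPAR-alpha and its coactivator PGC-1-alpha are the textbook transcriptional regulators of these genes, and loss of this programme is a described feature of injured tubules.

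The values are normalised reads, the authors' read numbers per gene after scaling for library size and rounding. With both agents the library totals spanned 5.34 to 5.73 M normalised reads, and the scaling steps point to 3.26 to 5.53 M reads behind them. For myoglobin the totals spanned 5.32 to 5.35 M and the estimated reads 5.33 to 5.92 M. For vehicle the totals spanned 5.25 to 5.29 M and the estimated reads 5.51 to 5.87 M. The shallowest library, replicate 4 with both agents, also stood apart from its group, with 2179 genes listed at 0; the other 11 libraries had 1051 to 1544. Its members lay above the mean of the other 3 libraries of its group in 29 of 39 cases, by a median of 0.10 on the log2 scale, against a median of 0.01 over all tested genes. It held the highest of the 12 values for 19 of the 39 genes, but the matching share over all tested genes was not counted. Counts are therefore given with and without this library, and single genes where leaving it out changed the call.

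The treatments were visible in 6 genes chosen to check them. With myoglobin against vehicle, Hmox1 (haem oxygenase) rose by 2.02 ± 0.062 (log2 change ± SE), Nqo1 by 0.90 ± 0.13 and Tsc22d3 by 0.36 ± 0.072, while Fkbp5 differed by 0.10, Per1 by -0.01 and Zbtb16 by 0.25, none of which passed. With both agents against myoglobin, the glucocorticoid-induced genes Fkbp5, Per1, Tsc22d3 and Zbtb16 rose by 1.19 ± 0.073, 0.71 ± 0.065, 0.45 ± 0.072 and 4.51 ± 0.40; Hmox1 and Nqo1 differed by 0.10 and 0.14 and did not pass. Epithelial identity was clear, with all 9 general tubular epithelial markers in the table. Their summed values were 10150 to 13781 with both agents, 9506 to 10125 with myoglobin and 10380 to 10561 with vehicle. The 13781 came from replicate 4 with both agents, where Cdh1 had 3384 beside 2417 to 2514 in the rest of its group. Proximal tubule identity was partial: 17 of 23 markers were in the table, and 7 of them, Cubn, Slc34a1, Slc5a2, Slc22a8, Aqp1, Kap and Pck1, averaged below 10 normalised reads. The sums were 3788 to 4177 with both agents, 3641 to 3834 with myoglobin and 3408 to 3808 with vehicle. A large part of them was Anpep alone, at 1788 to 2436, 1697 to 1769 and 1834 to 1986 in the same order, with the 2436 in replicate 4. Distal nephron markers, 12 of 15 in the table, summed to 3709 to 4044 with both agents, 3078 to 3431 with myoglobin and 3903 to 4884 with vehicle. Calb1 alone, a large part of these sums, stood at 1858 to 2535, 1600 to 1788 and 1301 to 1496 in the same order. With myoglobin against vehicle 9 of the 12 fell and 2 rose (background 9.62% lower and 8.71% higher). With both agents against vehicle 10 fell and 2 rose (background 14.6% lower and 13.9% higher). Summed podocyte markers (6 of 6 in the table) ran from 663 to 764 with both agents, 632 to 848 with myoglobin and 715 to 1046 with vehicle. Immune markers (6 of 7) summed to 493 to 544, 436 to 477 and 543 to 613 in the same order. Most of the immune sum was Ptprc alone, at 408 to 444, 320 to 377 and 401 to 484, and Csf1r, Itgam and Cd79a averaged below 10. Endothelial markers summed to 29 to 63 over all libraries, and 5 of the 6 averaged below 10. Fat cells, which also express lipases, were represented only by Plin4, 1 of 5 markers in the table, at 11 to 24, 7 to 17 and 13 to 19 normalised reads in the same order. In bulk RNA, fewer cells of a type and less RNA per cell cannot be told apart.

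Levels within the set were compared per kilobase of exon in vehicle-treated tubuloids. Acadl, the long-chain acyl-CoA dehydrogenase, stood highest at 285 ± 12.4 normalised reads per kb (SD, n = 4), followed by the peroxisomal bifunctional enzyme gene Hsd17b4 at 229 ± 6.53, Acsl5 at 209 ± 5.22 and Acaa2 at 199 ± 5.53. The library values of Acsl5 and Acaa2 overlapped, and Acadvl at 181 ± 2.20 and Crot at 181 ± 9.64 differed by less than their spread. Lowest were Ppara at 10.5 ± 2.13, Ehhadh at 9.73 ± 1.67 and Pdk4 at 4.20 ± 1.73, and Ppara and Ehhadh overlapped in their SD. The exon length is the union over all annotated transcripts, so a gene with a long rare transcript comes out too low. Read assignment was uncertain for some members: 11 of the 39 shared over 10% of their 50-base exon windows with transcripts of other genes, among them Hadhb (19.7%), Abhd5 (15.1%), Acad9 (14.6%), Eci2 (11.1%) and Lipe (10.8%), and 17 had exons that overlap another gene.

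With myoglobin 10 of the 39 genes changed, as many up as down. Against vehicle 5 members rose (Vnn1, Acad9, Abhd5, Acsl3 and Acadl) and 5 fell (Acss1, Cpt1a, Acox3, Acaa2 and Acad10). The background over the 14558 tested genes was 8.71% higher and 9.62% lower (18.3% in all), and the members stood at 12.8% in each direction. All 4 myoglobin libraries lay above all 4 vehicle libraries in 9 members (background 12.9%) and below them in 6 (background 12.1%). The median change of the 39 was -0.03, against 0.00 over all tested genes, and 16 of the 39 had a positive change. Without replicate 4 of the group with both agents, which enters only through the shared estimate of the spread, 8 members rose and 7 fell: the same 10, with Pnpla2, Echs1 and Hsd17b4 added to those that rose and Ppargc1a and Acadm to those that fell. The background without that library was 13.3% higher and 12.8% lower.

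With both agents against myoglobin 12 of the 39 genes changed, and 27 did not pass. With both agents 11 members rose over myoglobin alone: Acss1, Acsl1, Ppargc1a, Acox3, Crat, Acadm, Crot, Hsd17b4, Acadvl, Echs1 and Cpt1a. The background over all tested genes was 3.08% higher and 3.9% lower (6.98% in all), and the members stood at 28.2% higher. The members were chosen with earlier results of these data known, so the difference in share was not tested. All 4 libraries with both agents lay above all 4 with myoglobin in 14 members (background 7.03%) and below them in 1 (background 6.19%). Vnn1 was the 1 member that fell. In 37 of the 39 genes the change was positive (94.9%, against 51.8% of all tested genes), and the median was 0.11, against 0.01 over all tested genes. Acss1 rose by 0.71 on the log2 scale and the other 10 by 0.15 to 0.32. Without replicate 4 all 12 calls remained and Acad10 was added, 34 of the 39 changes were positive, and the median was 0.09. The background without it was 4.02% higher and 4.79% lower. A fit of only these groups kept 6 of the 11 rises and lost Acadvl, Cpt1a, Ppargc1a, Echs1 and Hsd17b4 (adjusted p 0.0501 to 0.0968).

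Positive changes were not confined to oxidation genes. The 9 general epithelial markers were all positive in the same contrast, with a median of 0.20; limma called 0 of them and 4 had an unadjusted p below 0.05. Without replicate 4, 8 of the 9 were positive, the median was 0.07 and 1 rose. The fibroblast and stroma markers went the other way, with 2 of 7 tested genes lower (background 3.9%), 6 changes negative and a median of -0.45. Their summed values were 179 to 275 with both agents, 295 to 349 with myoglobin and 406 to 478 with vehicle. A large part of these sums was Rgs5 alone, at 93 to 155, 159 to 191 and 236 to 305 in the same order. Col1a1 and Lum averaged below 10. Other marker lists were mixed with both agents against myoglobin. Changes were positive in 7 of 11 tested proximal tubule markers (median 0.04) and 8 of 12 distal nephron markers (median 0.09). They were positive in 2 of 6 podocyte markers (median -0.29) and 1 of 3 tested immune markers (median -0.26). The part of these shifts in the changes of the 39 genes was not tested.

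Set against vehicle, 14 members rose with both agents and Cpt1a fell. The background was 13.9% higher and 14.6% lower (28.6% in all), and the members stood at 35.9% higher. The 4 libraries with both agents were all above vehicle in 16 members (background 15.3%) and all below it in 2 (background 13.3%). The median change was 0.12, against 0.00 over all tested genes. This contrast and the preceding 2 share libraries, so their values are given side by side for each gene. Acss1, Cpt1a and Vnn1 were the 3 members that passed in all 3 comparisons, and 19 members passed in none. The matching shares over all tested genes were not counted. Without replicate 4 there were again 14 that rose and 1 that fell, with Acss1 lost and Ppargc1a gained, and the median was 0.08. The background without it was 14.7% higher and 14.4% lower.

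**Figure D1:**
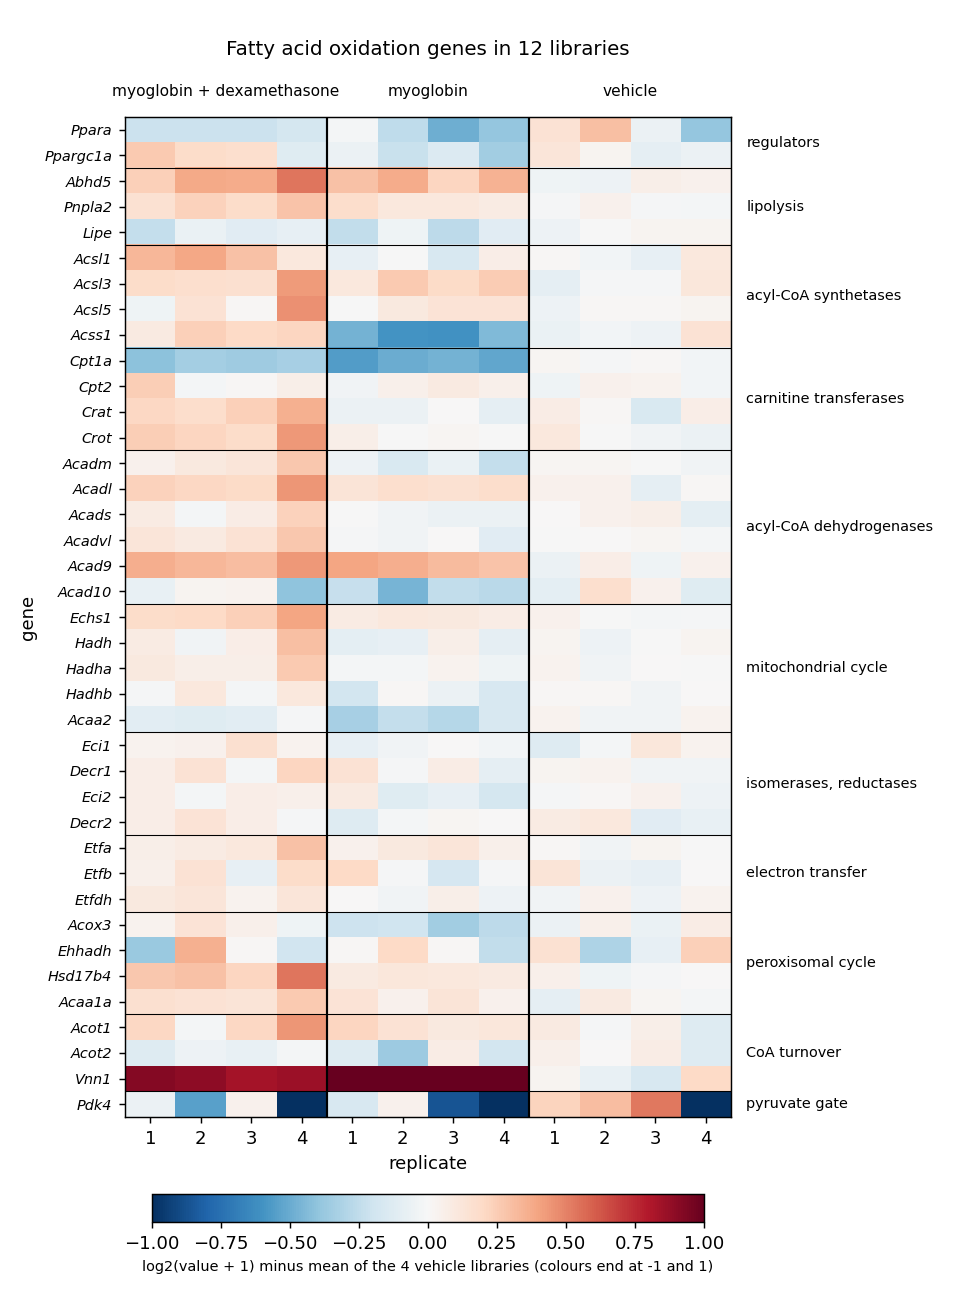
Log2 of each normalised read count relative to the gene's mean in the vehicle libraries, for the 39 genes (rows, grouped by role) in the 12 libraries (columns, both agents at left, then myoglobin, then vehicle). Vnn1 is high in all 8 libraries with myoglobin, Cpt1a is low in the same 8, and Acss1 is low only in the 4 libraries with myoglobin alone.

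**Figure D2:**
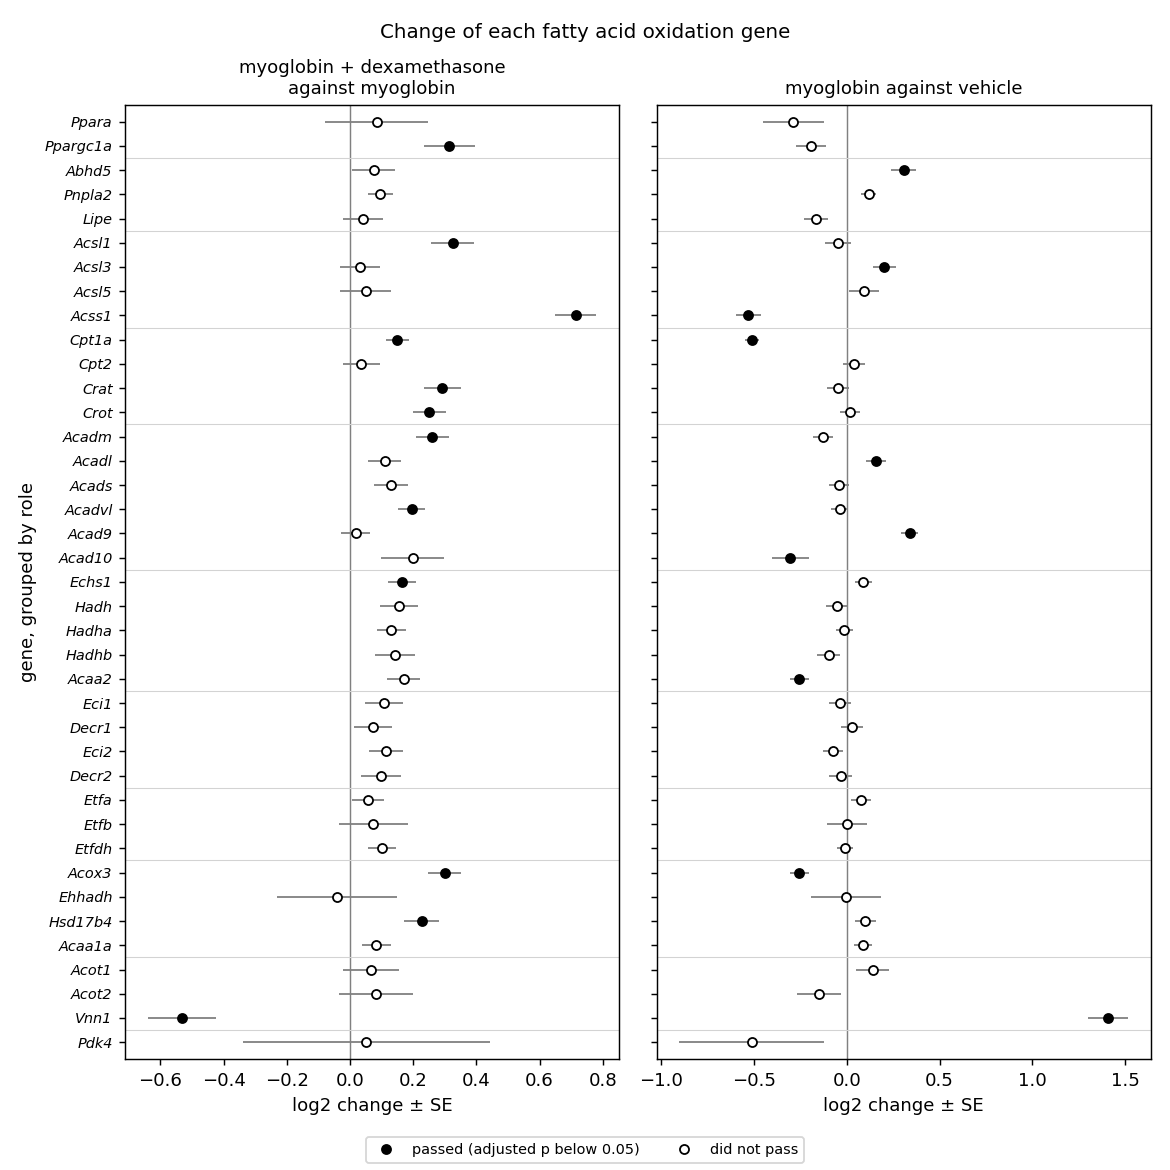
Log2 change ± SE (limma, 4 libraries per group) of each gene, with both agents against myoglobin at left and myoglobin against vehicle at right; filled points passed at an adjusted p below 0.05. At left nearly all points lie right of 0, with 11 filled above and Vnn1 filled below; at right 5 are filled on each side. Both panels use the myoglobin libraries.

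Among the regulators, Ppargc1a was the one with a call. Ppargc1a (mm10 chr5:51454250-51567726, minus strand) encodes PGC-1-alpha, the coactivator of mitochondrial genes. It had 417, 396, 392 and 320 normalised reads with both agents, 335, 299, 316 and 273 with myoglobin and 378, 355, 327 and 335 with vehicle. In 3 libraries with both agents the value lay above every myoglobin library, and replicate 4 at 320 lay inside the myoglobin range. Ppargc1a rose by 0.31 ± 0.081 with both agents against myoglobin (limma adjusted p = 0.0287). The change against vehicle was 0.12 ± 0.081 with both agents (adjusted p = 0.270) and -0.19 ± 0.081 with myoglobin (adjusted p = 0.123), and neither passed. Without replicate 4 with both agents both passed, with 0.21 for both agents (adjusted p = 0.0303) and an adjusted p of 0.0322 for myoglobin. The rise over myoglobin did not pass without 1 of 6 libraries (myoglobin replicate 2, 3 or 4, or replicate 1, 2 or 3 with both agents; adjusted p 0.0527 to 0.102), nor with equal library totals (adjusted p = 0.0727) or upper-quartile scaling (adjusted p = 0.0568). Ppara, the fatty acid receptor, stayed at 28 to 49 normalised reads in all 12 libraries and was called in no comparison; its change with myoglobin was -0.29 ± 0.16 against vehicle (adjusted p = 0.261).

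The lipolysis genes release fatty acids from stored triglyceride. Abhd5 encodes the activator of the first lipase. It had 197, 218, 217 and 243 normalised reads with both agents, 205, 217, 194 and 213 with myoglobin and 162, 161, 174 and 172 with vehicle. All 8 libraries that received myoglobin lay above all vehicle libraries, and the groups with and without dexamethasone overlapped. Abhd5 rose by 0.31 ± 0.069 with myoglobin against vehicle (adjusted p = 0.00485) and by 0.38 ± 0.069 with both agents against vehicle (adjusted p = 7.07e-04); the difference between the myoglobin groups was 0.07 ± 0.069 (adjusted p = 0.553). Pnpla2, the lipase that Abhd5 activates, had 548, 577, 561 and 602 normalised reads with both agents, 556, 531, 531 and 522 with myoglobin and 488, 507, 490 and 486 with vehicle. Its libraries with myoglobin also all lay above vehicle. Pnpla2 rose with both agents against vehicle, by 0.21 ± 0.040 (adjusted p = 9.61e-04), while the change of 0.12 ± 0.040 with myoglobin did not pass (adjusted p = 0.0513) and passed without replicate 4 with both agents (adjusted p = 0.0141). Lipe, hormone-sensitive lipase, ran from 194 to 237 normalised reads, changed by -0.17 ± 0.063 with myoglobin (adjusted p = 0.0830), and was not called.

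Among the 39 genes, the largest upward change with both agents over myoglobin was in acyl-CoA synthesis. Acss1 (chr2:150618105-150668500, minus strand) encodes the mitochondrial enzyme that turns acetate into acetyl-CoA. It had 247, 274, 267 and 269 normalised reads with both agents, 167, 153, 152 and 171 with myoglobin and 221, 228, 224 and 257 with vehicle. The myoglobin libraries lay wholly below both other groups, and the other two groups overlapped between 247 and 257. Acss1 fell with myoglobin against vehicle by -0.53 ± 0.066 (adjusted p = 3.15e-05) and rose with both agents against myoglobin by 0.71 ± 0.066 (adjusted p = 1.17e-05). Against vehicle the level with both agents was higher by 0.19 ± 0.066 (adjusted p = 0.0456), a call that was lost without 1 of 8 libraries, vehicle replicate 1, 2 or 3, myoglobin replicate 1 or 2, or replicate 2, 3 or 4 with both agents (adjusted p 0.0501 to 0.114), and with equal library totals (adjusted p = 0.134) or upper-quartile scaling (adjusted p = 0.0994).

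Of the 3 long-chain synthetases, Acsl3 rose with myoglobin and Acsl1 with dexamethasone on top of it. Acsl1, which serves oxidation in many tissues, had 303, 316, 295 and 260 normalised reads with both agents, 227, 240, 216 and 253 with myoglobin and 243, 236, 227 and 259 with vehicle. The libraries with both agents stood above every myoglobin library and every vehicle library. Acsl1 rose by 0.32 ± 0.069 over myoglobin (adjusted p = 0.0106) and by 0.28 ± 0.069 over vehicle (adjusted p = 0.00733), with a change of -0.04 ± 0.069 for myoglobin against vehicle (adjusted p = 0.723). Acsl3, the synthetase of lipid droplets and the endoplasmic reticulum, had 663, 656, 652 and 786 normalised reads with both agents, 628, 701, 665 and 697 with myoglobin and 547, 580, 579 and 631 with vehicle. Here the shift came with myoglobin: 0.20 ± 0.062 against vehicle (adjusted p = 0.0323) and 0.24 ± 0.062 with both agents against vehicle (adjusted p = 0.0107), with 0.03 ± 0.062 between the myoglobin groups. Myoglobin replicate 1 at 628 overlapped with vehicle replicate 4 at 631, and the call with myoglobin was lost without 1 of 6 libraries, vehicle replicate 1, 2 or 3 or myoglobin replicate 2, 3 or 4 (adjusted p 0.0634 to 0.0973). Acsl5 was the most abundant synthetase per kilobase, ran from 981 to 1395 normalised reads, and was called in no comparison.

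The carnitine acyltransferases carry acyl groups across membranes. Cpt1a (chr19:3322334-3385733, plus strand) encodes the liver isoform of carnitine palmitoyltransferase 1, the regulated entry step into mitochondrial oxidation. It had 452, 475, 469 and 477 normalised reads with both agents, 409, 426, 433 and 420 with myoglobin and 611, 596, 608 and 591 with vehicle. The 3 groups did not overlap at all, with vehicle highest and myoglobin lowest. Cpt1a fell by 0.51 ± 0.037 with myoglobin against vehicle (adjusted p = 9.31e-08). With both agents it was higher than with myoglobin by 0.15 ± 0.037 (adjusted p = 0.0232) and lower than with vehicle, at -0.36 ± 0.037 (adjusted p = 3.53e-06). The rise over myoglobin did not pass without myoglobin replicate 1, 2 or 4 or replicate 2 with both agents (adjusted p 0.0527 to 0.0684), nor after scaling all libraries to equal totals (adjusted p = 0.0597).

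The acyltransferases for shorter chains were not called with myoglobin. Crat, carnitine acetyltransferase, acts on acetyl groups in mitochondria and peroxisomes. It had 311, 304, 317 and 345 normalised reads with both agents, 259, 259, 270 and 253 with myoglobin and 283, 272, 242 and 282 with vehicle. Every library with both agents lay above every other library. Crat rose by 0.29 ± 0.059 over myoglobin (adjusted p = 0.00705) and by 0.24 ± 0.059 over vehicle (adjusted p = 0.00634). Crot, which exports medium-chain products of peroxisomal oxidation, had 1169, 1144, 1122 and 1333 normalised reads with both agents, 1028, 982, 1001 and 986 with myoglobin and 1063, 981, 960 and 945 with vehicle. Again all 4 libraries with both agents were above the other 8, with changes of 0.25 ± 0.053 over myoglobin (adjusted p = 0.00978) and 0.27 ± 0.053 over vehicle (adjusted p = 0.00147). Changes with myoglobin against vehicle were -0.05 ± 0.059 for Crat (adjusted p = 0.634) and 0.02 ± 0.053 for Crot (adjusted p = 0.856). Cpt2, the inner-membrane partner of Cpt1a, ran from 257 to 314 normalised reads and was called in no comparison.

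**Figure D3:**
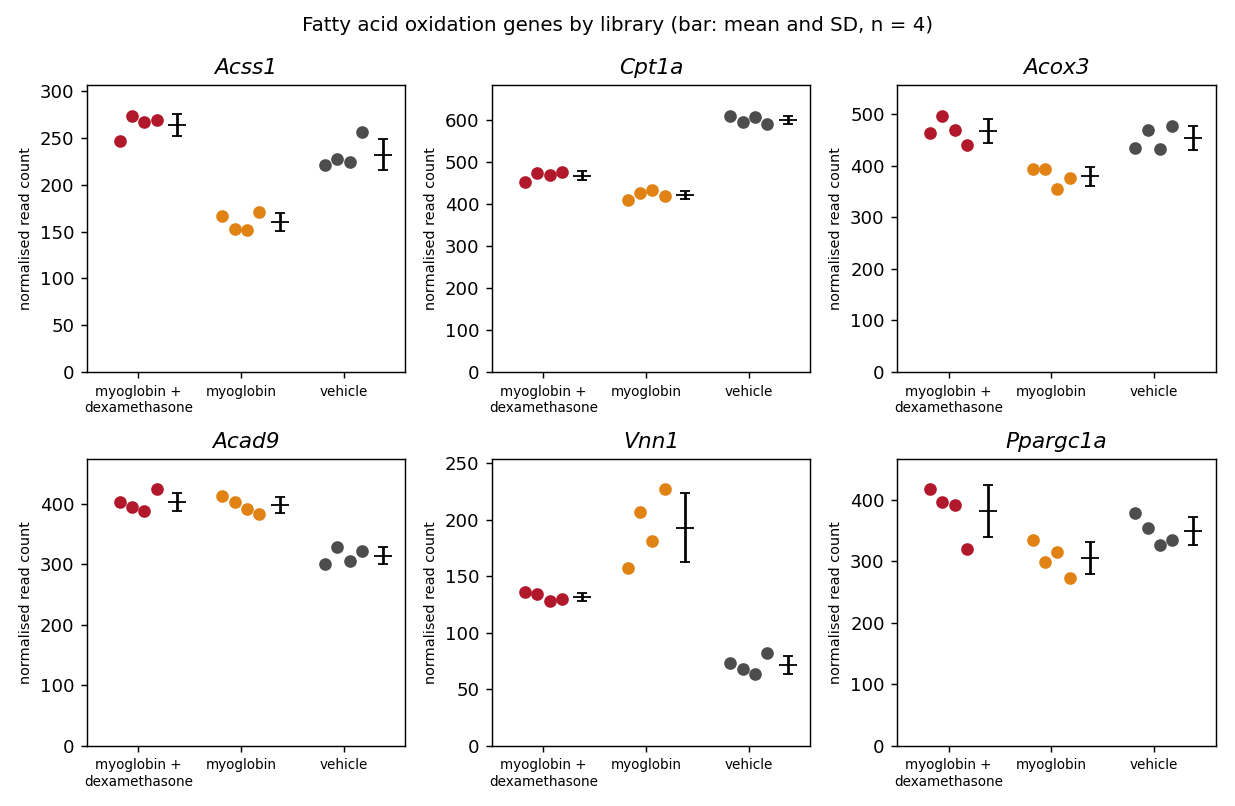
Normalised read count of 6 genes in each library (points, replicates 1 to 4 from left to right) with mean and SD (bars, n = 4), for both agents, myoglobin and vehicle. Acss1 and Acox3 are lower in myoglobin than in the other groups, Cpt1a is separate in all 3, Acad9 is higher in both groups with myoglobin, Vnn1 is highest with myoglobin alone, and replicate 4 with both agents is the lowest Ppargc1a point of its group.

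Promoters are shown for Cpt1a, Acss1 and Acox3, 3 members that fell with myoglobin and rose with dexamethasone. The sequences are the 250 bases before the transcription start in the RefSeq promoter table (build GRCm38.p6), written 5′ to 3′ on the gene's own strand at chr19:3323051-3323300, plus strand, chr2:150668241-150668490, minus strand and chr5:35582784-35583033, plus strand. The Cpt1a and Acss1 stretches lie inside the gene coordinates given above, whose annotated starts are further upstream. Capitals mark a nuclear receptor half-site, AGGTCA on either strand, which reads TGACCT in Cpt1a.
Cpt1a: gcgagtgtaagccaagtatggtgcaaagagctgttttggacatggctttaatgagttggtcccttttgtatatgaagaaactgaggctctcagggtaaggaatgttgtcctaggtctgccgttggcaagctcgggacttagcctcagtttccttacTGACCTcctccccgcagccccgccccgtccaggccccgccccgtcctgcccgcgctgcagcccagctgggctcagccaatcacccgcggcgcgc
Acss1: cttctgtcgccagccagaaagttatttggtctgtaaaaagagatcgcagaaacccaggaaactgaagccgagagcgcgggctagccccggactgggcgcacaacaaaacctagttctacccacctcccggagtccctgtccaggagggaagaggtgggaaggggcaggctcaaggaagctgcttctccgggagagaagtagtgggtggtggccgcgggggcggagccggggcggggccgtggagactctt
Acox3: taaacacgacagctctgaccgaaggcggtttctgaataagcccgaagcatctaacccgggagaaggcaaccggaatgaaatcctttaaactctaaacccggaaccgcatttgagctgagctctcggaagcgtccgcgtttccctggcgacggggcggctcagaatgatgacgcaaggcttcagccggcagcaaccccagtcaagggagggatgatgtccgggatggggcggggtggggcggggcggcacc
The table held 35 promoters of 33 members, from 250 bases before to 50 after the start; Crat, Acaa2, Hsd17b4, Acad9, Decr1 and Vnn1 had no entry. AGGTCA was present on either strand in 5 of the 35 (14.3%), those of Acadm, Echs1, Abhd5, Acadvl and Cpt1a, against 16.3% of all 32851 promoters of this length. Direct repeat 1, which is AGGTCA written again after a spacer of any 1 base, holds the half-site and is the form PPAR-alpha binds, was in 0 of 35, against 0.04% of all promoters. The oestrogen-related receptor motif TCAAGGTCA, which also contains the half-site, was in 0 of 35, against 0.423%. The glucocorticoid response element, searched as GNACA and TGTNC with any 3 bases between them, was in 0 of 35, against 0.475%. Another 2 motifs were searched: an NF-kB motif, GGGA and CC with any 4 bases between them, was in 11 of 35 (31.4%), against 20.7% of all promoters, and CCAAT in 15 of 35 (42.9%), against 37.4%.

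The acyl-CoA dehydrogenases carry out the first step of each mitochondrial round. Of the 6, 2 rose with both agents over myoglobin (background 3.08% higher), too few genes to read a share from. Acadm, the medium-chain enzyme, had 475, 493, 502 and 554 normalised reads with both agents, 444, 415, 439 and 391 with myoglobin and 467, 466, 460 and 449 with vehicle. All 4 libraries with both agents exceeded all 4 with myoglobin and all 4 with vehicle. Acadm rose by 0.26 ± 0.052 over myoglobin (adjusted p = 0.00705); its change against vehicle was 0.13 ± 0.052 (adjusted p = 0.0690) and did not pass. With myoglobin against vehicle the change was -0.13 ± 0.052 (adjusted p = 0.115), which passed without replicate 4 with both agents (adjusted p = 0.0363) and with equal library totals (adjusted p = 0.0419). Acadvl, the very-long-chain enzyme, had 529, 519, 539 and 586 normalised reads with both agents, 484, 474, 488 and 451 with myoglobin and 486, 489, 493 and 479 with vehicle. It too was highest in the 4 libraries with both agents. The rise was 0.19 ± 0.044 over myoglobin (adjusted p = 0.0147) and 0.16 ± 0.044 over vehicle (adjusted p = 0.0149); without myoglobin replicate 4 the rise over myoglobin did not pass (adjusted p = 0.0591). Acadvl overlaps exons of Dvl2 on the opposite strand, and the strand setting of the counting is not given in the sources used here, so its reads are uncertain.

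Another 2 dehydrogenases rose with myoglobin. Acad9, an acyl-CoA dehydrogenase that also serves in complex I assembly, had 404, 395, 389 and 424 normalised reads with both agents, 413, 404, 391 and 384 with myoglobin and 301, 329, 305 and 323 with vehicle. All 8 libraries with myoglobin were above all vehicle libraries. Acad9 rose by 0.34 ± 0.047 with myoglobin (adjusted p = 8.40e-05) and by 0.36 ± 0.047 with both agents (adjusted p = 4.07e-05), each against vehicle, with 0.02 ± 0.047 between the myoglobin groups (adjusted p = 0.857). Acadl, the long-chain enzyme, had 672, 662, 653 and 776 normalised reads with both agents, 626, 644, 636 and 647 with myoglobin and 588, 589, 536 and 576 with vehicle. The groups with myoglobin were again all above vehicle. Its rise was 0.16 ± 0.052 with myoglobin (adjusted p = 0.0471) and 0.27 ± 0.052 with both agents (adjusted p = 0.00135). Replicate 4 at 776 is far above the other 3 libraries of its group. The call with myoglobin was lost when any of 10 libraries was left out (all but replicates 3 and 4 with both agents; adjusted p 0.0542 to 0.155).

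Acad10, a dehydrogenase whose substrates are less well described, went the other way. It had 174, 187, 188 and 139 normalised reads with both agents, 156, 133, 155 and 152 with myoglobin and 172, 207, 189 and 169 with vehicle. The 4 myoglobin libraries were the lowest apart from replicate 4 with both agents at 139. Acad10 fell by 0.30 ± 0.099 with myoglobin against vehicle (adjusted p = 0.0455). The call was lost without 1 of 9 libraries (all but vehicle replicate 4 and replicates 3 and 4 with both agents; adjusted p 0.0501 to 0.150), and with equal library totals (adjusted p = 0.0601). The change with both agents over myoglobin was 0.20 ± 0.099 (adjusted p = 0.252), and it passed without replicate 4 (adjusted p = 0.0363). Acad10 shares 17.3% of its 50-base exon windows with other genes, mostly the neighbouring Acad12. Acads, the short-chain enzyme, ran from 334 to 419 normalised reads, the last in replicate 4 with both agents, and was not called.

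In the later steps of the mitochondrial round, 1 of 5 genes fell with myoglobin (background 9.62% lower). With both agents over myoglobin 1 of the 5 rose (background 3.08% higher), too few genes to read a share from. All 5 changes over myoglobin were positive, at 0.13 to 0.17, each with an unadjusted limma p below 0.05. Echs1, the short-chain enoyl-CoA hydratase, had 612, 619, 635 and 709 normalised reads with both agents, 569, 581, 577 and 566 with myoglobin and 554, 537, 531 and 533 with vehicle. All 4 libraries with both agents lay above the other 8. Echs1 rose by 0.16 ± 0.045 over myoglobin (adjusted p = 0.0380) and by 0.25 ± 0.045 over vehicle (adjusted p = 6.40e-04). The rise over myoglobin was lost without any 1 of 7 libraries (vehicle replicate 2 or 3, each myoglobin replicate, or replicate 3 with both agents; adjusted p 0.0549 to 0.106). Its change with myoglobin against vehicle was 0.09 ± 0.045 (adjusted p = 0.198) and passed without replicate 4 with both agents (adjusted p = 0.0328). Acaa2, the mitochondrial thiolase that ends the round, had 280, 278, 281 and 299 normalised reads with both agents, 239, 256, 247 and 270 with myoglobin and 309, 294, 295 and 309 with vehicle. All myoglobin libraries were below the other 8. Acaa2 fell by 0.25 ± 0.051 with myoglobin against vehicle (adjusted p = 0.00214); with both agents it was 0.17 ± 0.051 over myoglobin (adjusted p = 0.0580), which did not pass, though it did without myoglobin replicate 4 (adjusted p = 0.0495), and -0.08 ± 0.051 against vehicle (adjusted p = 0.225). Hadh and the trifunctional protein genes Hadha and Hadhb were called in no comparison, with changes of 0.15 ± 0.061, 0.13 ± 0.045 and 0.14 ± 0.063 over myoglobin.

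The isomerases and reductases that handle unsaturated fatty acids (Eci1, Eci2, Decr1 and Decr2) and the electron carriers (Etfa, Etfb and Etfdh) had no call. Limma called 0 of these 7 genes in each of the 3 comparisons. At an unadjusted p below 0.05 there were 0 with myoglobin against vehicle, 1 with both agents against myoglobin and 2 with both agents against vehicle. Their changes ran from -0.07 to 0.08 with myoglobin against vehicle, from 0.06 to 0.11 with both agents against myoglobin, and from 0.04 to 0.13 with both agents against vehicle. Etfb shares 44.8% of its exon windows with the overlapping gene Gm45233, so its 60 to 78 normalised reads are uncertain.

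The peroxisomal cycle opens with an oxidase in place of a dehydrogenase. Acox3 (chr5:35583040-35615352, plus strand), the oxidase for branched-chain substrates, had 464, 497, 470 and 440 normalised reads with both agents, 393, 394, 355 and 377 with myoglobin and 435, 469, 433 and 477 with vehicle. All myoglobin libraries were below the other 8, and the other two groups overlapped. Acox3 fell with myoglobin against vehicle by 0.26 ± 0.052 (adjusted p = 0.00233) and rose with both agents against myoglobin by 0.30 ± 0.052 (adjusted p = 0.00255). Against vehicle the change with both agents was 0.04 ± 0.052 (adjusted p = 0.549). Hsd17b4, the bifunctional enzyme of the next steps, had 936, 956, 903 and 1129 normalised reads with both agents, 830, 843, 839 and 827 with myoglobin and 807, 754, 771 and 782 with vehicle. Its libraries with both agents were above the other 8, and replicate 4 at 1129 was the highest. Hsd17b4 rose by 0.23 ± 0.056 over myoglobin (adjusted p = 0.0231) and by 0.33 ± 0.056 over vehicle (adjusted p = 4.56e-04). The rise over myoglobin was lost without myoglobin replicate 2, 3 or 4 (adjusted p 0.0545 to 0.0683). Its change with myoglobin against vehicle, 0.10 ± 0.056 (adjusted p = 0.247), passed without replicate 4 with both agents (adjusted p = 0.0180).

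Acaa1a, a peroxisomal thiolase, had 571, 565, 559 and 614 normalised reads with both agents, 564, 527, 559 and 528 with myoglobin and 482, 544, 519 and 505 with vehicle. The libraries with both agents were all above vehicle and overlapped with myoglobin. It rose by 0.17 ± 0.047 with both agents against vehicle (adjusted p = 0.0127) and was called in neither of the other comparisons. Acaa1a shares 17.1% of its exon windows with Acaa1b and other genes, so its reads may be split between copies. Ehhadh, the other bifunctional enzyme and a classical PPAR-alpha target of rodent liver, stood at 22 to 37 normalised reads in all libraries with no call.

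Counted by compartment, 22 members were placed in the mitochondrion and 7 in the peroxisome. Each gene was placed once, and Crat, which acts in both and rose with both agents over myoglobin, was counted as mitochondrial. With myoglobin against vehicle, 2 mitochondrial genes rose and 4 fell, and 1 peroxisomal gene fell, beside a background of 8.71% higher and 9.62% lower; 2 of 22 higher lies near it, and 7 genes are too few to read a share from. With both agents against myoglobin, 6 mitochondrial and 3 peroxisomal genes rose (background 3.08%), and limma called 0 of either lower, with 0 of either at an unadjusted p below 0.05 in that direction. The summed value of the 22 was 8215 ± 391 with both agents, 7380 ± 126 with myoglobin and 7625 ± 48.3 with vehicle (SD, n = 4). The 4 libraries with both agents ran from 7990 to 8800, the last being replicate 4, and all exceeded the myoglobin libraries at 7237 to 7543 and the vehicle libraries at 7569 to 7672. For the 7 peroxisomal genes the sums were 3898 ± 194 with both agents, 3393 ± 62.2 with myoglobin and 3390 ± 61.4 with vehicle. The sums with myoglobin and with vehicle overlapped for the peroxisome and did not for the mitochondrion. Within the mitochondrial sum, Cpt1a alone averaged 422 with myoglobin and 601.5 with vehicle, and 16 of the 22 genes were not called between these groups. The gap is therefore not read as a shift of all 22 genes. Each sum is dominated by its most abundant genes and received no test.

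The largest change among the 39 genes was in coenzyme A turnover. Vnn1 (chr10:23894688-23905343, plus strand) encodes vanin 1, a pantetheinase at the cell surface that splits pantetheine, a breakdown product of coenzyme A, into pantothenate and cysteamine. It had 136, 134, 128 and 130 normalised reads with both agents, 157, 207, 181 and 227 with myoglobin and 73, 68, 64 and 82 with vehicle. The 3 groups did not overlap, with myoglobin highest and vehicle lowest, and the spread was widest with myoglobin. Vnn1 rose with myoglobin against vehicle by 1.41 ± 0.11 (adjusted p = 1.95e-07). It fell with both agents against myoglobin by 0.53 ± 0.11 (adjusted p = 0.00767), and remained above vehicle by 0.88 ± 0.11 (adjusted p = 2.58e-05). The thioesterases Acot1 and Acot2, which release free fatty acids from acyl-CoA, stood at 129 to 192 and 44 to 60 normalised reads and were not called. They share 19.3% and 27.7% of their exon windows, mostly with each other, and their reads are uncertain. Pdk4, the kinase that closes pyruvate dehydrogenase and is a glucocorticoid and PPAR target in other tissues, stood at 5 to 20 normalised reads in all 12 libraries. Its change was 0.05 ± 0.39 with both agents against myoglobin and -0.51 ± 0.39 with myoglobin against vehicle, and it passed in no comparison (adjusted p = 0.956 and 0.419 in this order).

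**Figure D4:**
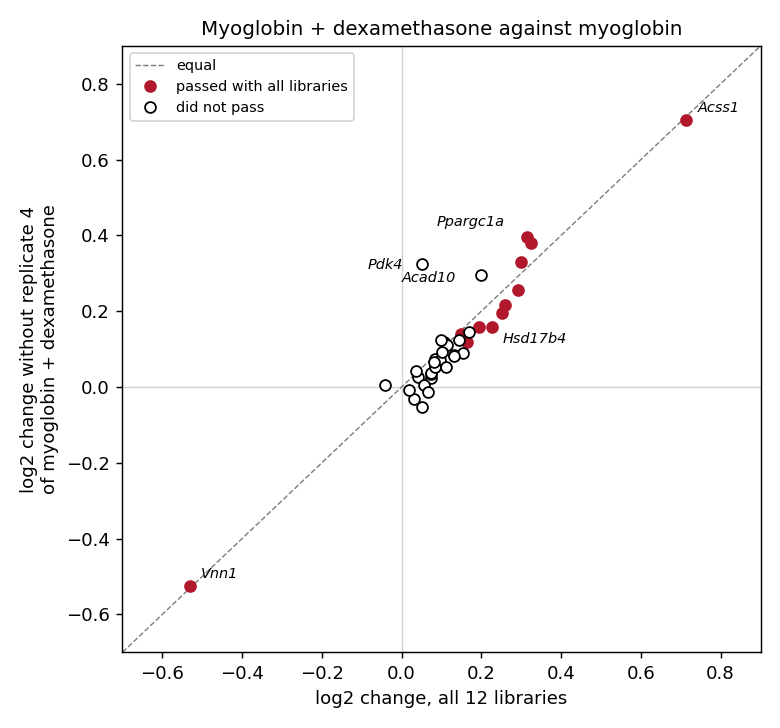
Log2 change with both agents against myoglobin for the 39 genes, with all 12 libraries (x axis) and without replicate 4 with both agents (y axis); filled points passed with all libraries and the dashed line marks equal values. The 12 filled points keep their side of 0, Ppargc1a lies above the line, Hsd17b4 below it, and the labelled open points Pdk4 and Acad10 lie above it.

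Other genes of the pathway came from a list of 82 genes, of which 76 are in the table and 67 were tested. The list too was chosen with earlier results of these data known, so its shares received no test. With myoglobin against vehicle 8 rose and 5 fell, 19.4% of those tested against a background of 18.3%, with a median of -0.04 and 27 of 67 positive. For both agents against myoglobin, 12 rose and 2 fell, 20.9% against 6.98%, with a median of 0.10 and 56 of 67 positive. Both agents against vehicle gave 19 that rose and 4 that fell, 34.3% against 28.6%, with a median of 0.09. Without replicate 4 the counts were 9 and 5, 13 and 1, and 17 and 4 in the same order of comparisons. The background without it was 13.3% higher and 12.8% lower, 4.02% and 4.79%, and 14.7% and 14.4%.

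Among these genes, Vnn3, another pantetheinase, passed in all 3 comparisons, each time in the direction of Vnn1. It averaged 170 ± 16.8 normalised reads with both agents, 222 ± 14.5 with myoglobin and 36.8 ± 3.30 with vehicle. The changes were 2.57 ± 0.095 for myoglobin against vehicle, -0.38 ± 0.095 for both agents against myoglobin and 2.18 ± 0.095 for both agents against vehicle (adjusted p = 4.37e-11, 0.0235 and 3.20e-10 in this order). The fatty acid transporter Slc27a1 averaged 840 ± 22.4, 702 ± 24.2 and 925 ± 32.9 normalised reads with both agents, myoglobin and vehicle. It fell with myoglobin by 0.40 ± 0.040 (adjusted p = 3.40e-06), was higher with both agents than with myoglobin by 0.26 ± 0.040 (adjusted p = 0.00109), and was lower than vehicle, at -0.14 ± 0.040 (adjusted p = 0.0162). Pdk2, a more widely expressed pyruvate dehydrogenase kinase, fell with myoglobin (-0.37 ± 0.056, adjusted p = 2.11e-04) and rose with dexamethasone on top of it (0.29 ± 0.056, adjusted p = 0.00598).

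With myoglobin against vehicle, the peroxisomal oxidase Acox2 rose by 1.13 ± 0.13, the acetyl-CoA carboxylases Acacb and Acaca, whose product malonyl-CoA inhibits CPT1, by 0.43 ± 0.053 and 0.33 ± 0.052, and the ketone enzyme gene Bdh1 by 0.69 ± 0.13; Acss3, Scp2 and Cyp4b1 fell, with changes of -0.61 ± 0.12, -0.24 ± 0.048 and -1.92 ± 0.44. After both agents, relative to myoglobin, the monoglyceride lipase Mgll rose by 0.59 ± 0.065, the peroxisome proliferation gene Pex11a by 0.31 ± 0.056 and the dehydrogenase Acad11 by 0.24 ± 0.046, while the carnitine and organic cation transporter Slc22a4 fell, at -0.86 ± 0.23. Between both agents and vehicle, Acacb, Mgll and Pex11a rose by 0.63 ± 0.053, 0.63 ± 0.065 and 0.37 ± 0.056; Slc22a4, Acss3 and Lpl fell, with -1.05 ± 0.23, -0.42 ± 0.12 and -0.75 ± 0.26. Adjusted p-values of these changes ranged from 4.63e-07 (Acacb against vehicle) to 0.0448 (Lpl).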

How the data were processed

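Total RNA of 12 tubuloid samples was sequenced from stranded messenger RNA libraries, per the labels' protocols. Build mm10 and these tools appear, with no role, in the submitters' processing notes: DESeq2 1.36.0, featureCounts 2.0.3, STAR 2.7.10a, Trimmomatic 0.39 and Picard 2.27.4. The deposited values are whole numbers and are treated as a normalised score: each library skips or repeats whole numbers at the step of its own size factor (0.568 to 1.11), so the authors' reads were scaled and rounded. They are not counts, and no count test was run. Each library's reads in genes (3.26 to 5.92 M) were estimated from that step.

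Limma 3.58.1 (R 4.3.3, trend fit) was fitted to log2(value + 1), where 1 is the pseudocount, over the 14558 genes that reached 10 in 4 or more libraries. The 3 groups were terms of 1 fit with a shared spread (9 residual degrees of freedom). Tests were two-sided, with Benjamini-Hochberg adjustment across all tested genes of a comparison; "rose" and "fell" mean an adjusted p below 0.05. The script was tested on simulated data. Fold changes on this scale understate the change of genes with low values. Members called in any comparison are given in all 12 libraries, the others by range; of the other pathway genes, up to 5 called genes per comparison and direction with the smallest p are named, except 1 that is not reported here. The members and lists were chosen with earlier results of these data known, so no list was tested. Gene coordinates are those of the deposited table, and all 39 equal GENCODE M21. Alternatives were other pseudocounts (0.5 and 10), no filter, other scalings, array weights, only the groups compared, a replicate block, and leaving out each library. Tables and plots used Python 3.11.15, pandas 2.3.3, numpy 2.4.6 and matplotlib 3.10.9.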

Additional observations from a re-analysis of the deposited data

Results flagged for a closer look

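In 7 of the 117 groups of 4 libraries (39 genes in 3 treatments), 1 library lay far from the other 3 by Dixon's test at the 95% level; chance alone flags about 1 group in 20. Of these, 4 were in replicate 4 with both agents, the shallowest library. It was the highest of its group for Acsl3 at 786 normalised reads, with the others at 652 to 663. Acadl stood at 776 there, with the others at 653 to 672. Acaa2 had 299, with the others at 278 to 281. Ppara had 35 where the others all had 34, a gap of 1 read. In the same group, replicate 3 was the highest for Eci1, at 232 with the others at 213 to 214.

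In the myoglobin group, replicate 3 was the highest for Hadh, at 582 with the others at 522 to 527. In the vehicle group, replicate 3 was the lowest for Hadhb, at 175 with the others at 180 to 181. Hadh, Hadhb, Eci1 and Ppara passed in no comparison.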

How the results depend on the processing

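Under 22 alternatives, 12 of which leave out 1 library, no called member changed direction. With both agents against myoglobin 7 of the 12 calls held under every alternative, with myoglobin against vehicle 7 of 10, and with both agents against vehicle 14 of 15. Members not called that passed under at least 1 alternative numbered 3, 7 and 5 in that order. Of 65 member changes called under no setting, 19 had another sign under at least 1 alternative, none larger there than 0.13.

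With both agents against myoglobin, fitting only the 2 groups compared left 6 members higher and 639 genes called in all, against 11 and 1016 with 3 groups; array weights gave 1625 genes. The median of the members was 0.0785 with equal library totals. Leaving out 1 library gave 7 to 12 members higher, 8 to 15 other pathway genes called and 549 to 1279 genes called, with the lowest values without myoglobin replicate 4.

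With myoglobin against vehicle, the median was -0.0490 with equal library totals and -0.0523 with upper-quartile scaling. Array weights gave 8 members higher and 4314 genes called, against 5 and 2669. Leaving out 1 library gave 3 to 8 members higher and medians of -0.0367 to -0.0140. With both agents against vehicle, the median of 0.12 became 0.0721 with equal library totals, 0.0788 with upper-quartile scaling and 0.0877 with array weights, and 0.0832 to 0.139 without 1 library. The cause of these shifts was not tested.

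Replicate numbers are not stated to pair libraries. The deviations of same-numbered libraries correlated at -0.02 to 0.46 over 12 pairs, 9 of them above 0.1, and 9 of 12 libraries correlated best with their own number, a hint from the data only. A replicate block gave 1788 genes called with both agents against myoglobin; among members it added Acaa2 there, Ppargc1a and Lipe with myoglobin against vehicle (adjusted p = 0.0150 and 0.0439), and changed no other call. The block without replicate 4 with both agents, an alternative chosen after seeing the data, gave 2099 genes and a median of 0.0770 with both agents against myoglobin, a median of 0.0843 with both agents against vehicle, and, with myoglobin against vehicle, 9 members higher, 8 lower, 24 other pathway genes and 5184 genes called. With 4 libraries a group, 1 of them at 3.26 M reads, changes of genes such as Pdk4, Ehhadh and Ppara below 50 normalised reads are imprecise.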
